A study of Saccharomyces cerevisiae with 6 samples.

Results

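The 9 genes described here encode proteins that move or make polyamines in budding yeast (Saccharomyces cerevisiae). They were taken as a fixed list from the 6002 protein-coding genes that a RefSeq table of assembly R64 places on the nuclear chromosomes, and all 9 were found in it. TPO1, TPO2, TPO4 and TPO5 encode exporters, AGP2, DUR3 and SAM3 belong to uptake, and SPE1 and SPE2 encode enzymes of synthesis. The question was which of these genes had a binding peak of the transcription factors Pdr1 or Pdr3 upstream, and how the peak at TPO1 compared with those at its relatives.

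Polyamines (putrescine, spermidine and spermine) are small, positively charged molecules that bind nucleic acids and are needed for growth, while an excess is toxic. Cells keep their level in range through synthesis from ornithine and S-adenosylmethionine, through uptake, and through export by membrane proteins. Tpo1, Tpo2 and Tpo4 belong to the DHA1 family, drug:proton antiporters of the major facilitator superfamily, and members of this family also carry drugs and weak acids. Pdr1 and Pdr3 are related zinc-cluster activators of the pleiotropic drug resistance genes, many of which encode drug exporters.

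Binding was measured by CUT&RUN, in which an antibody on permeabilised nuclei directs a nuclease to the bound protein and the released DNA is sequenced. The 6 libraries came from 2 strains grown in YPD, a rich glucose medium. For Pdr1, 2 anti-c-Myc and 2 control rabbit IgG libraries were made from the strain named YRP10. For Pdr3, 1 library of each kind was made from the strain named Pdr3_3xmyc. The labels name no further genotype for either strain, and nothing in them says whether the Pdr1 replicates were separate cultures. Peak lists of the 3 anti-c-Myc libraries were used, with 792 peaks in Pdr1 replicate 1, 485 in Pdr1 replicate 2 and 7 for Pdr3. No IgG list was used here, so no control value stands beside the values below. The lists give no read depth. Each peak carries a fold enrichment, a −log10 q and a summit, the base of its highest signal, all as the authors' peak caller gave them. Ranks are counted from the highest value of a list. A gene counted as having a summit when one lay within 1000 bp upstream of its annotated start.

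The 3 DHA1 exporters among these genes, TPO1, TPO2 and TPO4, each had a summit upstream in both Pdr1 replicates. TPO5, the uptake genes AGP2 and DUR3 and the synthesis genes SPE1 and SPE2 had none in any list. SAM3 had a weak peak in Pdr1 replicate 1 alone. Only TPO1 of the 9 had a Pdr3 peak.

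Counted per list, 4 of the 9 genes had a summit in Pdr1 replicate 1, where 15.5% of all protein-coding genes had one. In Pdr1 replicate 2 it was 3 of 9, against 10.2% of all genes. A summit in each of the Pdr1 replicates was found for 3 of 9, against 8.95%. In the Pdr3 list it was 1 of 9, against 0.167%, which is 10 genes of the 6002. No test was made on these counts, since TPO1 was already a known Pdr1 target gene and the members were listed with results of these data known.

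**Figure D1:**
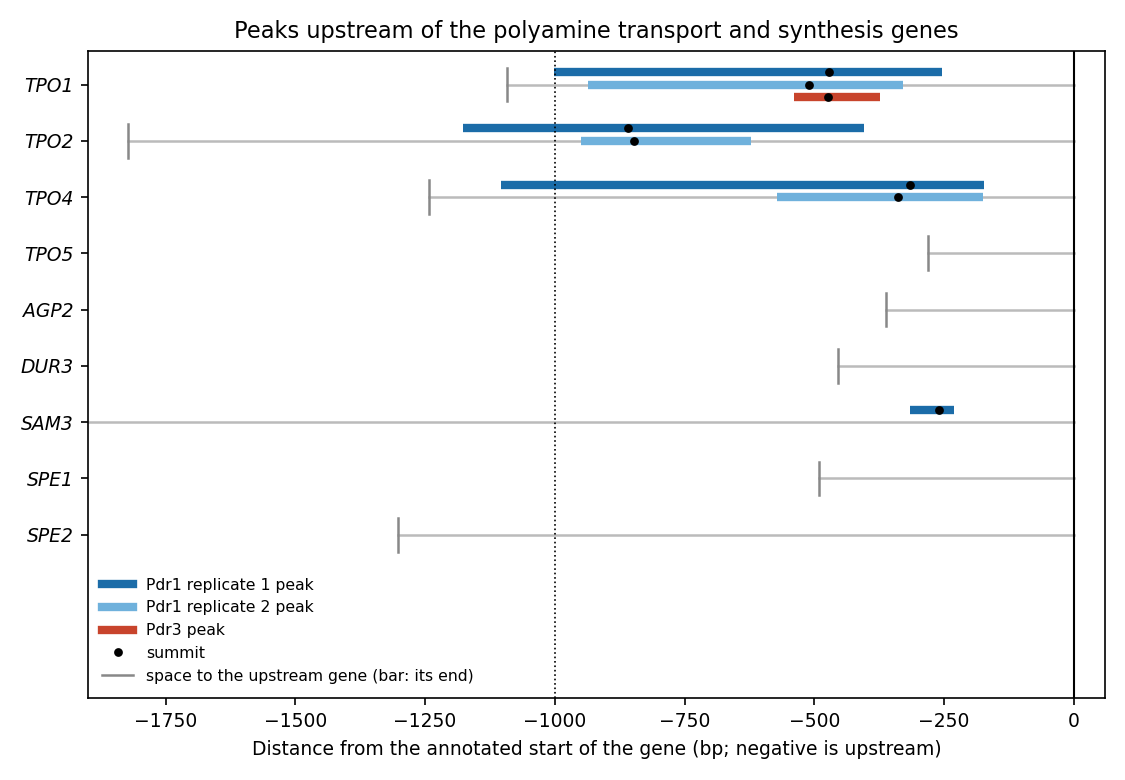
Peaks (coloured bars) and summits (black dots) upstream of the 9 genes, by distance in bp from the annotated start, with the dotted line at 1000 bp. The grey line runs to the next gene upstream, except for SAM3, where the space of 6069 bp is cut at the edge of the plot. Peaks of both Pdr1 replicates stand upstream of TPO1, TPO2 and TPO4, with their summits between 316 and 858 bp from the start, a Pdr3 peak stands upstream of TPO1, and the only other peak is the narrow one at SAM3.

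The genes differed in the room upstream of them. The space to the next protein-coding gene was 1093 bp for TPO1, 1822 bp for TPO2 and 1242 bp for TPO4, against a median of 448 bp over all genes. It was 280 bp for TPO5, 361 bp for AGP2, 454 bp for DUR3 and 491 bp for SPE1. Thus the 3 exporters with peaks all had wide upstream spaces, and in 4 of the 5 genes without any peak the space was 491 bp or less. Genes with at least 1000 bp of upstream space had a summit more often in general, 29.5% in Pdr1 replicate 1, 24.0% in Pdr1 replicate 2 and 20.0% in both. Of the 5 listed genes with that much space, 3 had a summit in both replicates. The other two were SPE2, with 1303 bp and no summit, and SAM3, with 6069 bp and a summit in 1 replicate. The part of upstream space in the difference between the exporters and the other genes was not tested.

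TPO1 (YLL028W, chromosome XII, 84804 to 86564, plus strand) encodes a plasma membrane exporter of polyamines that also confers resistance to several drugs. Its gene upstream, FRA1, lies on the same strand, and no other gene shared its summits. In Pdr1 replicate 1 the peak ran from 83803 to 84551 with its summit at base 84333, 471 bp from the start. The fold enrichment was 7.71 (rank 125 of 792) and the −log10 q was 134 (rank 19). In Pdr1 replicate 2 the peak ran from 83868 to 84475 with its summit at base 84294, 510 bp from the start, with a fold enrichment of 11.9 (rank 11 of 485) and a −log10 q of 87.3 (rank 8). TPO1 thus stood among the best-supported peaks of both lists by −log10 q, and by fold in replicate 2 but less so in replicate 1. At 749 and 608 bp, its peaks were also wide, with 93.2% and 93.4% of the peaks of the same list narrower.

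TPO4 (YOR273C, chromosome XV, 834452 to 836431, minus strand) encodes another plasma membrane exporter of the family. Its fold enrichment was close to that of TPO1 in each replicate, while its −log10 q was lower in both. In replicate 1 the peak from 836604 to 837534 had a fold enrichment of 7.80 (rank 121) and a −log10 q of 88.7 (rank 31). In replicate 2 the peak from 836605 to 837003 had a fold enrichment of 11.9 (rank 12) and a −log10 q of 66.9 (rank 14). The summits, at bases 836747 and 836769, lay 316 and 338 bp from the start, nearest to the gene among the 3 exporters. They were also within 1000 bp of the divergent gene MOD5, which encodes a tRNA-modifying enzyme, so the lists cannot assign the peak to either gene alone.

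TPO2 (YGR138C, chromosome VII, 763762 to 765606, minus strand) encodes an exporter of the same family. The sources used here do not say how reads that match more than 1 place were treated, and genes of a family share sequence, so its peaks are less certain where such reads occur. The TPO2 peak had the highest fold of the 3 genes in replicate 1, 12.4 (rank 27, −log10 q 80.1), and a mid-list fold in replicate 2, 5.05 (rank 220, −log10 q 17.4). Its summits at bases 766464 and 766454 lay 858 and 848 bp from the start. They were also upstream of the divergent gene CBF2, which encodes a kinetochore protein.

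The positions of the exporter peaks were close between replicates, and their sizes were not. The summits of the replicates were 39 bp apart at TPO1, 10 bp at TPO2 and 22 bp at TPO4. The median over the 413 replicate 1 peaks that overlapped a replicate 2 peak was 27 bp (quartiles 9 and 68 bp). By fold enrichment the order was TPO2, TPO4, TPO1 in replicate 1 and TPO1, TPO4, TPO2 in replicate 2, which is the exact reverse. TPO1 and TPO4 were neighbours in both orders with close folds, 7.71 and 7.80 in replicate 1 and 11.9 for both in replicate 2. The clear change was that of TPO2, from the highest fold to the lowest. By −log10 q the order was TPO1, TPO4, TPO2 in both. With 2 replicates that rank the genes in opposite ways by fold, no order of fold enrichment among the 3 genes can be given.

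**Figure D2:**
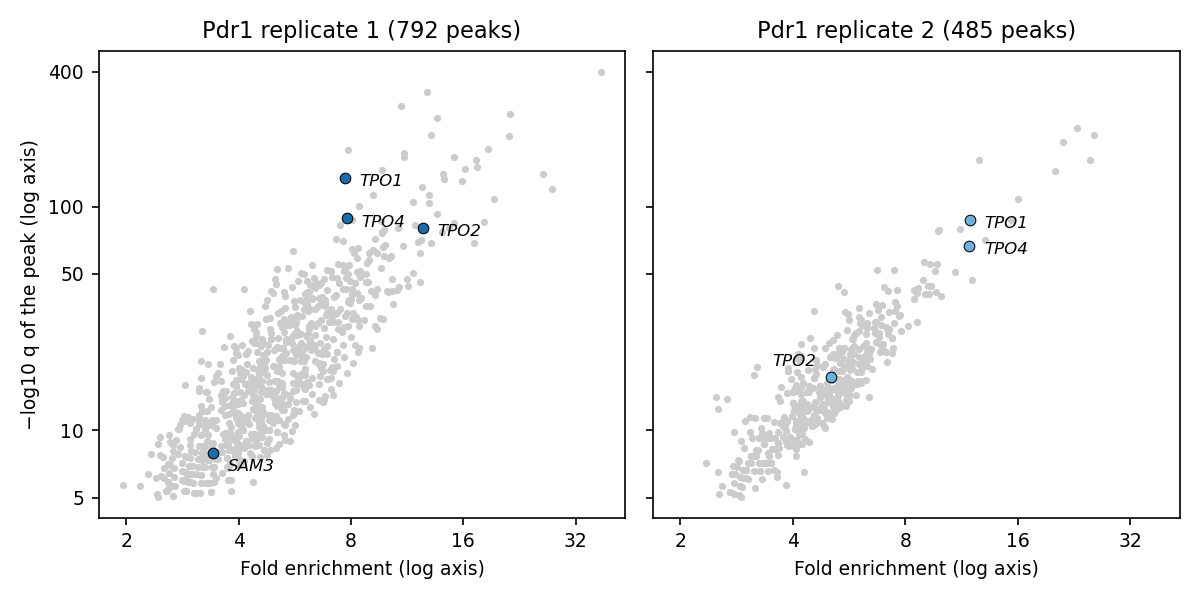
Fold enrichment and −log10 q (both log axes) of every peak in the Pdr1 replicates (grey), with the peaks upstream of listed genes in blue. TPO1 and TPO4 lie in the upper part of both lists, TPO2 moves from 12.4-fold in replicate 1 to 5.05-fold in replicate 2, and SAM3, in replicate 1 alone, lies near the bottom.

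For every gene with a summit upstream, the nearest such summit was taken, so a shared summit counted for each of its genes. The median distance from the start was 375 bp in replicate 1 (quartiles 256.5 and 559 bp, 931 genes). In replicate 2 it was 409 bp (quartiles 298 and 608 bp, 613 genes). The TPO4 summits were nearer to the start than these medians. The TPO1 summits lay between the median and the upper quartile. The TPO2 summits lay beyond the upper quartile.

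TPO5 (YKL174C, chromosome XI, 120380 to 122236, minus strand) encodes an exporter of another transporter family that acts in secretory vesicles. The nearest summit to its start was 13271 bp away in replicate 1 and 13227 bp away in replicate 2, both upstream of the ribosomal protein gene RPL17A. The polyamine exporter outside the DHA1 family therefore had no listed Pdr1 peak nearby, and the Pdr3 list held no peak on its chromosome.

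The uptake genes came next. AGP2 (YBR132C, chromosome II, 499652 to 501442), which encodes a plasma membrane regulator of polyamine and carnitine uptake, had its nearest summit 24079 bp away in both Pdr1 replicates, upstream of TEF2 and TKL2. DUR3 (YHL016C, chromosome VIII, 72037 to 74244), which encodes a transporter of urea and polyamines, had its nearest summit 8171 bp away in replicate 1 and 18021 bp away in replicate 2, upstream of AIM17 and RIM4 respectively. SAM3 (YPL274W, chromosome XVI, 22938 to 24701) encodes the high-affinity S-adenosylmethionine permease, which also takes up polyamines. Its replicate 1 peak, from 22622 to 22708, was 87 bp wide with its summit at base 22678, 260 bp from the start. The fold enrichment was 3.42 (rank 651 of 792) and the −log10 q was 7.95 (rank 680), and only 1.89% of the replicate 1 peaks were narrower. The nearest replicate 2 summit was 16516 bp away.

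The synthesis genes had no peak either. SPE1 (YKL184W, chromosome XI, 96757 to 98157) encodes ornithine decarboxylase, which makes putrescine. Its nearest summits lay 2926 bp away in replicate 1, upstream of ASH1 and MTR2, and 3041 bp away in replicate 2, beyond the other end of SPE1 and upstream of FAS1. SPE2 (YOL052C, chromosome XV, 232446 to 233636) encodes S-adenosylmethionine decarboxylase, which supplies the group that turns putrescine into spermidine. Its nearest replicate 1 summit was 17170 bp away. The nearest replicate 2 summit, 1432 bp from the start on the far side of the gene, lay upstream of DDR2. No summit of any list lay inside any of the 9 genes or between 1000 and 2000 bp upstream of their starts, so none was lost just outside the window. The lists hold only peaks past the authors' threshold, and the least significant entries had a −log10 q of 5.05 for each Pdr1 replicate and 7.46 for Pdr3. These are the lowest values seen, that of Pdr3 being the TPO1 peak itself, and need not equal the threshold. A missing peak therefore means none past the threshold, not that the factor was absent.

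The comparison was then widened to 21 other genes of polyamine metabolism and transport. In Pdr1 replicate 1, 5 of the 21 had a summit (23.8%), and in replicate 2 and in both replicates 3 (14.3%). In the Pdr3 list it was 0, against 0.167% of all genes, a share too low for this 0 to tell the set apart. The Pdr1 shares were closer to those of all genes, 15.5%, 10.2% and 8.95%, than those of the listed genes were. Upstream space also differed between these sets. Of the 21, only CAR1 (1323 bp), GAP1 (1903 bp), HOL1 (1431 bp) and UGA4 (3857 bp) had at least 1000 bp, against 5 of the 9 listed genes. The part of upstream space in this contrast was not tested. The 3 genes with a summit in both replicates were CAR1, HYP2 and ANB1. CAR1 encodes arginase, which supplies ornithine, and its peaks had fold enrichments of 5.45 (rank 314) and 5.48 (rank 161). HYP2 and ANB1 encode the copies of translation factor eIF5A, which carries hypusine, a residue made from spermidine. HYP2 had fold enrichments of 5.68 (rank 288) and 5.07 (rank 217), and ANB1 6.14 (rank 235) and 6.22 (rank 94). Each of these summits was also upstream of a second gene, PEX25 for CAR1, ANP1 for HYP2 and CYC1 for ANB1. The HYP2 summits, 618 and 518 bp from its start, lay inside the gene UTR5, beyond the 130 bp of space upstream of HYP2. PAA1, a polyamine acetyltransferase gene, and PTK1, a gene for a protein kinase of polyamine transport, had a summit in replicate 1 alone, at 7.20-fold and 7.07-fold.

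The other 16 of the 21 genes had no summit in any list. They include SPE3 and SPE4, the spermidine and spermine synthase genes that complete the pathway begun by SPE1 and SPE2. They also include FMS1 (polyamine oxidase), OAZ1 (the antizyme that directs ornithine decarboxylase to degradation), HOL1 (a polyamine importer of the DHA1 family) and MMP1 (the S-methylmethionine permease related to SAM3).

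**Figure D3:**
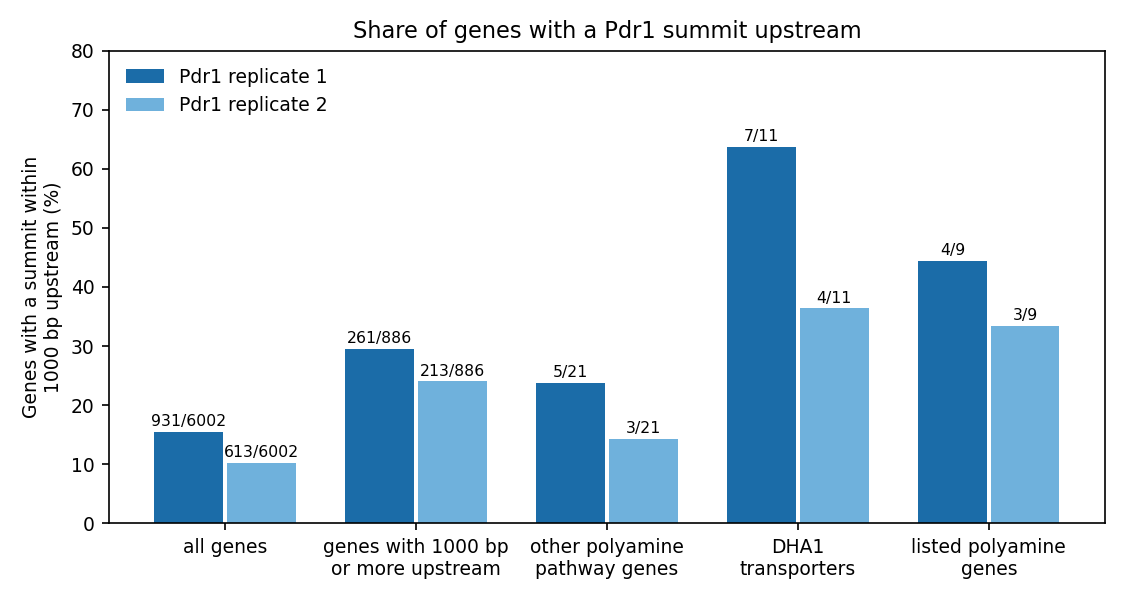
Share of genes (%) with a summit within 1000 bp upstream in each Pdr1 replicate, with the number of genes over each bar. The DHA1 transporters and the listed genes lie above all genes and above genes with at least 1000 bp of upstream space in both replicates. These 2 groups share TPO1, TPO2 and TPO4, without which the DHA1 shares were 50% in replicate 1 and 12.5% in replicate 2. The other polyamine pathway genes lie at 23.8% and 14.3%.

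Among relatives, TPO1, TPO2 and TPO4 were compared with 8 other DHA1 transporters. In replicate 1, 4 of these 8 had a summit (50%), against 15.5% of all genes. In replicate 2 and in both replicates it was 1 of 8 (12.5%), near the 10.2% and 8.95% of all genes. With TPO1, TPO2 and TPO4 included, this made 7 of 11 in replicate 1 (63.6%) and 4 of 11 in replicate 2 (36.4%), against 15.5% and 10.2% of all genes. AQR1, an exporter gene linked to weak acid resistance, was the one with a summit in both replicates, at fold enrichments of 5.98 (rank 254) and 8.66 (rank 28) and −log10 q of 49.8 and 43.5. Like TPO1, its summits lay upstream of no other gene. FLR1, a fluconazole exporter gene, QDR2, a multidrug exporter gene, and DTR1, a spore wall dityrosine exporter gene, had replicate 1 peaks alone, at 4.04-fold, 5.46-fold and 8.13-fold. HOL1, QDR1, QDR3 and YHK8 had none. The comparison of 3 of 3 with 1 of 8 was not tested, because the members were chosen with these results known.

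Pdr3 was compared with Pdr1 at the exporters. The Pdr3 peak upstream of TPO1 ran from 84265 to 84431, inside both Pdr1 peaks. Its summit at base 84330 lay 3 bp from the summit of Pdr1 replicate 1 and 36 bp from that of replicate 2. Its fold enrichment of 2.36 and its −log10 q of 7.46 were the lowest of the 7 Pdr3 peaks, whose other 6 ranged from 3.26-fold to 12.6-fold. So TPO1 was on the Pdr3 list as its weakest entry and had no replicate there.

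TPO4, which had no Pdr3 peak, was close to TPO1 in Pdr1 fold enrichment (7.80 against 7.71 in replicate 1, 11.9 for both in replicate 2) but below it in −log10 q in both replicates (88.7 against 134, and 66.9 against 87.3). Of the 413 overlapping Pdr1 peaks, 7 had a higher −log10 q than TPO1 in both replicates, and of these 3 overlapped a Pdr3 peak and 4 did not. TPO4 was exceeded in both replicates by 13, of which 5 overlapped a Pdr3 peak. The PDR15 peak, upstream of a drug exporter gene of the ABC family, had a lower −log10 q than TPO4 in both Pdr1 replicates, 76.3 and 47.1, and a Pdr3 peak of 5.48-fold. By fold enrichment the PDR15 peak was above TPO4, at 9.67 and 12.1. TPO2, whose −log10 q was lower than that of TPO4 in both replicates, had no Pdr3 peak, and the Pdr3 list held none on its chromosome. With 1 Pdr3 library and 7 peaks, a difference between TPO1 and its relatives in Pdr3 binding could not be tested.

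**Figure D4:**
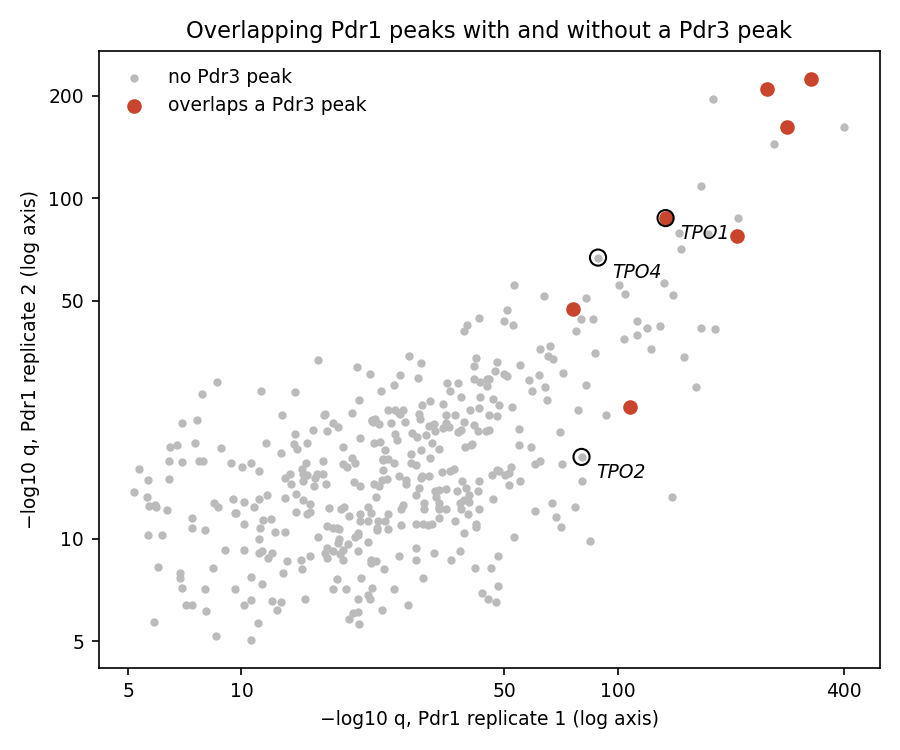
−log10 q in Pdr1 replicate 1 and replicate 2 (log axes) of the 413 overlapping Pdr1 peaks, in red where a Pdr3 peak overlapped, with the peaks of TPO1, TPO2 and TPO4 circled. TPO1 (134 and 87.3) carries a Pdr3 peak, while TPO4 (88.7 and 66.9) and TPO2 (80.1 and 17.4) carry none.

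Among the regions with a peak in all 3 lists, likeness to TPO1 was taken as the sum over lists of the difference in rank by fold, divided by the length of the list. The nearest was the region of SNQ2, a multidrug exporter gene of the ABC family, at 0.253. It had fold enrichments of 10.9 (rank 41) and 12.6 (rank 9) in the Pdr1 replicates and 3.26 (rank 6) for Pdr3. Next, at 0.450, was the region upstream of RGL1 and YPL068C, with 21.2 (rank 5), 9.80 (rank 17) and 5.02 (rank 5). By this measure the 7 regions came in the order of their Pdr3 ranks, since each rank weighs most in the shortest list. The likeness thus rests largely on the unreplicated Pdr3 list. In the Pdr1 replicates alone, the ranks of the PDR15 region, 59 and 10, were nearer to the 125 and 11 of TPO1 than those of SNQ2. TPO1 had the lowest rank by fold of the 7 regions in replicate 1 and in the Pdr3 list, but was in position 5 of the 7 in replicate 2.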

How the data were processed

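Peak lists of 3 anti-c-Myc CUT&RUN libraries were used, 1 list per library. The submitters' processing notes name Trimmomatic 0.33, Bowtie2, Picard, deepTools and MACS2 2.1.1 and the builds R64 and sacCer3. The sources used here do not give the settings, the use of IgG and spike-in reads or the treatment of multiply matching reads. The deposited lists have no header. Column 7 was read as a fold enrichment (ratio), columns 8 and 9 as −log10 p and −log10 q, and the deposited score in column 5 was in 100% of peaks the whole part of 10 times the −log10 q. The score and the −log10 p were not used further.

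A summit is the deposited start plus its offset, given counted from 1. Gene models came from a RefSeq table of R64, with the strand read from the systematic name, and 96.4% of the models had a length that is a multiple of 3, so starts are taken as coding starts. A summit could count for more than 1 gene. Python 3.11.15 and pandas 2.3.3 were used. The assignment was tested on simulated data, 200 planted summits per strand, of which 100% were placed correctly.

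The members and lists were chosen with earlier results of these data known. 1 listed gene is not reported here and is in no count of the listed or DHA1 genes. Named were all other members, the listed pathway and DHA1 genes with a summit, genes sharing a member's summit, the genes at the nearest summit of a member without one, and the 2 regions most like TPO1. Listed genes without a summit, genes sharing a pathway gene's summit, FRA1 and PDR15 were named after their values were seen. The search for response elements was not run, for want of a genome sequence in the material used.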

Additional observations from a re-analysis of the deposited data

How the results depend on the processing

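The background of genes with at least 1000 bp of upstream space was added after seeing the data. A count is called unmoved here when it stayed within 1.5 times the reported one. Of 52 recomputed counts and ranks 41 were unmoved, and of 45 recomputed numbers of lists per listed gene 40 were equal. Part of this was fixed in advance. For the 5 listed genes without a summit in any list, only counting any overlap of a peak with the window could have added one. Every other setting left them at 0, so those equal values say nothing about robustness. The same holds for the Pdr3 count of pathway genes, which was 0. With 500 bp upstream, the listed genes with a summit fell from 4 to 3 in Pdr1 replicate 1 (TPO1, TPO4 and SAM3), from 3 to 1 in replicate 2 and from 3 to 1 in both (TPO4), against 10.8%, 6.48% and 5.28% of all genes. The pathway genes fell from 5 to 3 and from 3 to 1, and the DHA1 genes from 7 to 5 and from 4 to 2. The summits' own distances of over 500 bp account for this: TPO2 kept no list and TPO1 lost replicate 2, by 10 bp. With a −log10 q of at least 10, TPO1 lost its Pdr3 peak, and SAM3 lost its peak. This left 0 listed and 0 DHA1 genes with a Pdr3 peak, against 0.15% of all genes. SAM3 also lost it with equal numbers of peaks. A reciprocal overlap of 50% left 1 listed gene shared between replicates, TPO1, since the replicate peaks at TPO2 and TPO4 differed in width. The share of all genes was then 6.43%. Summits within 100 bp left 3, against 7.55% of all genes. By −log10 q the TPO1 peak ranked 19 in place of 125 in replicate 1, and the cause was not tested. Leaving out a Pdr1 replicate gave 3 to 4 listed genes, 3 to 5 pathway genes and 4 to 7 DHA1 genes. The shares of all genes were 10.2% without replicate 1 and 15.5% without replicate 2. Ending the window at the neighbouring gene, or counting any overlap of a peak with the window, moved no count past that limit. The former did remove HYP2, which left 4 pathway genes in replicate 1 and 2 in replicate 2, against 13.4% and 8.83% of all genes. No paired analysis was possible because only the c-Myc group of Pdr1 has numbered replicates among the lists used here. The planned search for response elements was not run. Read depth is unknown, so a peak missing from a list cannot be told apart from one below the threshold.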
